A study of Mus musculus with 4 samples.

Results

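The genes described here encode the enzymes of cholesterol synthesis and of fatty acid synthesis, with the proteins that sense sterols and switch both pathways on. They were chosen by symbol, as 33 known targets or regulators of the sterol regulatory element binding proteins (SREBPs), among 18193 genes on the array. Of these, 18 belong to the sterol branch, 9 to the fatty acid branch, and 6 are regulators of SREBP or carry sterol between membranes. A probe set assigned to a single symbol was found for 32 of them, and Acat2, the cytosolic thiolase that feeds the sterol branch, has no value here. All 32 lay above the floor of log2 5.23, the median of all values, on every array.

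The measurements come from ST2 cells, an established fibroblast-like line from the bone marrow stroma of BALB/c mice, profiled on Affymetrix Mouse Genome 430 2.0 arrays. Cells of 3 groups received ultrasound in low-intensity pulses (LIPUS, used clinically on healing bone) at 25 mW per square cm for 20 min, and were then kept at 37 °C for 0.5, 1 or 3 h. The control was a culture kept at 37 °C, and all cultures grew in medium with 10% serum, which itself carries cholesterol. Each group is 1 array, so no test was possible, the spread between cultures is unknown, and the labels do not mention a sham treatment of the control.

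Cholesterol is built from acetyl-CoA through mevalonate, farnesyl diphosphate and squalene, and fatty acids from the same acetyl-CoA through malonyl-CoA. When membranes of the endoplasmic reticulum run low in sterol, the escort protein SCAP lets SREBP travel to the Golgi, where it is cut to release a transcription factor. SREBP2 mainly drives the sterol enzymes and SREBP1 mainly the lipogenic ones. INSIG proteins hold SCAP back when sterol is plentiful, and Insig1 is itself an SREBP target. Stromal cells need both pathways for membrane growth, and the branch point at farnesyl diphosphate also supplies the lipid anchors of small GTPases.

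Values are log2 signals as deposited, and a ratio is a LIPUS array minus the control array on that scale, from the brightest probe set of a gene. A gene is said to have risen or fallen when its log2 ratio reached 0.322 in size, so a ratio printed as 0.32 can lie on either side of this rule. A stricter rule of 2-fold was applied as well. Levels are not compared between genes, because probe sets differ in brightness for the same amount of RNA. In bulk cultures, a change in the RNA of each cell cannot be told apart from a change in which cells were present. The only error available is the disagreement in log2 ratio between the 2 brightest probe sets of a gene. Over all genes its SD per probe set was 0.108 (0.5 h), 0.158 (1 h) and 0.138 (3 h), and it leaves out the spread between cultures.

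The arrays had nearly the same distribution, with median log2 signals between 5.21 and 5.25 and between 22453 and 22703 of 45101 probe sets above the floor. Of 9 stromal markers, 6 lay above the floor on all arrays, among them the collagen genes Col1a1 and Col1a2, while Thy1, Lum and Dcn lay under it, and Vcam1 had log2 ratios of 0.33 at 1 h and 0.36 at 3 h. Of 4 adipocyte markers with a probe set, 3 lay under the floor on all arrays (Adipoq, Cidec and Lep), and Fabp4 had log2 ratios of 0.32, 0.30 and 0.33 at 0.5, 1 and 3 h. Under the floor on all arrays were also 3 of 5 blood cell markers (Ptprc, Cd68 and Adgre1), 3 of 4 endothelial markers (Pecam1, Cdh5 and Tek) and 1 of 3 liver markers (Alb). Among those above it, Lyz2 of macrophages had log2 ratios of 0.30, 0.38 and 0.47, Csf1r 0.00, −0.06 and −0.07, and Kdr 0.17, −0.15 and 0.07. The liver markers Ttr and Apoa1 also lay above it, with 0.04, −0.01 and 0.05 for Ttr and 0.26, −0.01 and 0.13 for Apoa1. The part of these cell markers in the results was not tested.

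The promoters of the members were searched for 4 motifs. Members were chosen as known targets or regulators of SREBPs, so motifs linked to SREBPs are not independent of that choice. SREBPs are known to act beside the factors NF-Y, which binds CCAAT, and Sp1, which binds GGGCGG. A RefSeq table (GRCm38.p6) of 300 bases around gene starts held 26 of the 33 members, and both strands were searched. CCAAT occurred in 14 of 15 sterol genes and in 3 of 6 fatty acid genes, against 42.8% of 9449 genes in the table that were above the floor on at least 1 array. GGGCGG occurred in 14 of 15 sterol genes and 3 of 6 fatty acid genes, against 68.5%. The E-box CACGTG occurred in 3 of 15 sterol genes and 0 of 6 fatty acid genes, against 11.8%, and a classical sterol element, TCACNCCAC, in Hmgcs1 alone of the 26 members, against 1.44%. A gene with several annotated starts had more chances of a match, and CACGTG reads the same on both strands.

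The stretches shown end at the base before the annotated start and are 160 bases long, read along the strand of the gene. Capitals mark the 4 motifs on either strand, so that CCAAT also appears as ATTGG and GGGCGG as CCGCCC. They were picked by response, to set 4 sterol genes that rose at 1 h and Hmgcs1 beside Insig1, Fasn and Fads2. Insig1 rose with the 4, and Fasn and Fads2 did not. Acly and Mvd also rose at 1 h but are not shown. The 160 bases of Acly held 4 GGGCGG and 0 CCAAT matches, and those of Mvd 1 and 2.
Hmgcs1 (chr13:119690191-119690350, plus strand): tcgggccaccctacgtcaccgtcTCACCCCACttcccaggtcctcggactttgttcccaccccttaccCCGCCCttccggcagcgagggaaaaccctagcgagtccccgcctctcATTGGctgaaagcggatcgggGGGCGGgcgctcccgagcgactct
Idi1 (chr13:8885446-8885605, plus strand): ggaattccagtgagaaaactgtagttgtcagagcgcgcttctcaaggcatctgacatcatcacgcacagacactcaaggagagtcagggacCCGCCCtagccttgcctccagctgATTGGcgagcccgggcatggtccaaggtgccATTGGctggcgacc
Cyp51 (chr5:4104698-4104857, minus strand): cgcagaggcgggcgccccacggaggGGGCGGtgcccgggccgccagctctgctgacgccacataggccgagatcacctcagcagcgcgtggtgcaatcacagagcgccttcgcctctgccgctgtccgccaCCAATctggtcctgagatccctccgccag
Hsd17b7 (chr1:169969206-169969365, minus strand): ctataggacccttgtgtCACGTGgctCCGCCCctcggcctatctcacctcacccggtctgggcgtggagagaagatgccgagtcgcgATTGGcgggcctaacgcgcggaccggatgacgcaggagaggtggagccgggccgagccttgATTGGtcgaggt
Sc5d (chr9:42264301-42264460, minus strand): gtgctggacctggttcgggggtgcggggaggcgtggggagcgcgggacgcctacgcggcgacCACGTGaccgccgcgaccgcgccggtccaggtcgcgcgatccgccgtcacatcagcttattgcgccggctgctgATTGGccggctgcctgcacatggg
Insig1 (chr5:28071252-28071411, plus strand): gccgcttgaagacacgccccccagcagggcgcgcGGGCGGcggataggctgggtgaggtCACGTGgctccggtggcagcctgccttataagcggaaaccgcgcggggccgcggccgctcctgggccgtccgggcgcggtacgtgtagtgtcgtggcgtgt
Fasn (chr11:120824548-120824707, minus strand): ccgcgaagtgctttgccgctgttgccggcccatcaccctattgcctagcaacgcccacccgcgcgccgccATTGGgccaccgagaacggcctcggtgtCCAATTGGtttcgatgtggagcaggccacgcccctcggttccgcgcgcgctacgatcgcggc
Fads2 (chr19:10101504-10101663, minus strand): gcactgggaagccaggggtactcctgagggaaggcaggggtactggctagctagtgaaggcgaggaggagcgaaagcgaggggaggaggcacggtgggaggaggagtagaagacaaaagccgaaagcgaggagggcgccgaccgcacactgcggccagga
In these stretches the sterol element of Hmgcs1 begins 137 bases before the start and a reversed CCAAT 45 bases before it. Idi1 has CCAAT matches 45 and 14 bases before the start, Hsd17b7 73 and 12, and Cyp51 and Sc5d have 1 each, 29 and 24 bases before it. Insig1 has GGGCGG and CACGTG but no CCAAT there, although CCAAT occurs elsewhere in the 300 bases searched. Fasn, which did not pass the rule at any time, has 3 CCAAT matches, of which the 2 nearest the start share letters on opposite strands, and the stretch of Fads2 holds none of the 4 motifs, although GGGCGG occurs elsewhere in the 300 bases searched. These are matches of letters and do not show binding.

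The sterol branch was higher than the control at all 3 times and most so at 1 h. Its 17 measured enzymes had a median log2 ratio of 0.17 (0.5 h), 0.31 (1 h) and 0.21 (3 h), which correspond to 1.13-fold, 1.24-fold and 1.16-fold. The median over all genes was 0.01, 0.02 and 0.01. At each time 16 of the 17 had ratios above 0, against 52.7%, 54.7% and 52.2% of all genes, although the 3 comparisons share the control array.

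No member passed 2-fold at any time, a rule that 0.138%, 0.191% and 0.0691% of all genes passed at 0.5, 1 and 3 h. By the rule of 0.322, 0 of 17 sterol enzymes rose at 0.5 h, where 1.37% of 11574 genes did. At 1 h, 8 of 17 rose (Pmvk, Mvd, Idi1, Fdft1, Cyp51, Hsd17b7, Sc5d and Dhcr7), where 5.32% of 11497 genes did. At 3 h, 3 of 17 rose (Idi1, Tm7sf2 and Hsd17b7), where 3.26% did. None of the 32 members fell at any time. Over all genes 1.29%, 4.25% and 2.93% fell, so a count of 0 among 32 is not a result about the members. Among 8730 genes at least as bright on average as the dimmest member, 1.21%, 5.80% and 3.31% rose. The 1 h count of sterol enzymes was 5 with quantile normalization, with the mean over probe sets, or without probe sets that can match several transcripts (suffix _x_at or _s_at). Over all genes, 4.03%, 4.23% and 5.31% rose under these settings. The sterol count was 1 when the mean of the other 3 arrays, LIPUS arrays included, took the place of the control, where 2.28% of all genes rose.

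**Figure D1:**
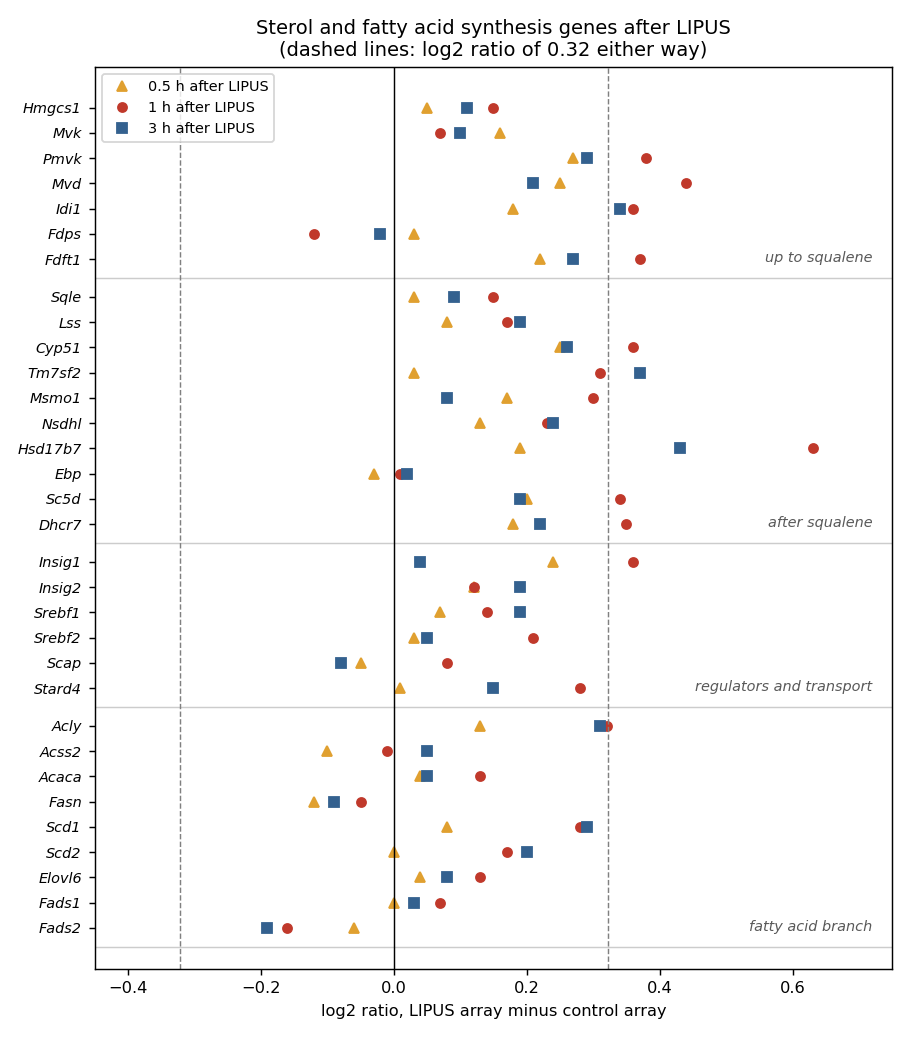
Log2 ratio of each of the 32 measured genes, LIPUS array minus control array, from the brightest probe set, at 0.5 h (triangles), 1 h (circles) and 3 h (squares), with 1 array per group and no error bars. In the sterol groups most circles lie right of the other symbols and Hsd17b7 reaches 0.63, while the fatty acid genes lie between −0.19 and 0.32.

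Among the 7 measured enzymes up to squalene, 4 rose at 1 h (Pmvk, Mvd, Idi1 and Fdft1) and 1 at 3 h (Idi1). Over all genes, 5.32% and 3.26% rose at these times. The medians of the 7 enzymes were 0.18, 0.36 and 0.21. Pmvk, phosphomevalonate kinase, had log2 signals of 8.07 (control), 8.34 (0.5 h), 8.45 (1 h) and 8.37 (3 h), so all LIPUS arrays lay above the control. Mvd, the decarboxylase that makes isopentenyl diphosphate, read 7.76, 8.01, 8.20 and 7.97 on the same arrays, the largest 1 h ratio of this stretch at 0.44 or 1.35-fold. Its other probe set had ratios of 0.13, 0.17 and 0.08, short of the rule, so the call at 1 h rests on the brighter one.

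Idi1, the isomerase that follows Mvd, read 11.33 (control), 11.51 (0.5 h), 11.68 (1 h) and 11.67 (3 h). Its ratio was 0.36 at 1 h and still 0.34 at 3 h, whereas its second probe set gave 0.20 and 0.15 and did not pass the rule. Fdft1, squalene synthase, read 10.54, 10.77, 10.91 and 10.81 in the same order. It rose 1.29-fold at 1 h by this probe set, which has the suffix _x_at and can match several transcripts. A second one read 10.30, 10.38, 10.35 and 10.34, a ratio of 0.05 at 1 h. The remaining ones, near the floor, gave −0.18 and 0.15 at 1 h, so the call rests on the brightest probe set.

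Hmgcs1, the synthase that commits acetyl units to mevalonate, did not pass the rule by its brightest probe set, which read 12.24 (control), 12.29 (0.5 h), 12.39 (1 h) and 12.35 (3 h). The other 3 bright probe sets of Hmgcs1 gave larger 1 h ratios of 0.43, 0.23 and 0.31, and each of these 4 was highest at 1 h. Mvk, mevalonate kinase, had ratios of 0.16, 0.07 and 0.10, and its second probe set was at −0.11 at 1 h. Fdps, farnesyl diphosphate synthase, was the sterol enzyme below the control at 1 h and 3 h, at −0.12 and −0.02, with log2 signals of 11.64, 11.67, 11.51 and 11.62 in the control and at 0.5, 1 and 3 h.

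The 10 enzymes after squalene close the ring and trim lanosterol to cholesterol. Of these, 4 rose at 1 h (Cyp51, Hsd17b7, Sc5d and Dhcr7) and 2 at 3 h (Tm7sf2 and Hsd17b7). Over all genes, 5.32% and 3.26% rose at these times. The medians of the 10 enzymes were 0.15, 0.30 and 0.21. Hsd17b7, a ketosterol reductase, read 8.17 (control), 8.36 (0.5 h), 8.80 (1 h) and 8.60 (3 h), a rise of 1.54-fold at 1 h and 1.34-fold at 3 h. That probe set can match more than its own transcript, and the 2 others above the floor gave 0.27 and 0.39 at 1 h and 0.15 and 0.21 at 3 h, so the call at 1 h held for 1 of these 2 and the call at 3 h for neither. The step between 0.5 and 1 h was 0.44, which made Hsd17b7 the single member to pass the rule between adjacent LIPUS arrays. The other 2 probe sets stepped by 0.30 and 0.15, short of the rule.

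Cyp51, lanosterol demethylase, rose at 1 h by each of its 3 probe sets. The brightest one read 10.39 (control), 10.64 (0.5 h), 10.75 (1 h) and 10.65 (3 h), and another read 9.07, 9.46, 9.69 and 9.47. The 1 h ratios were 0.36, 0.62 and 0.39, so that the call did not rest on the choice of probe set. Sc5d, lathosterol desaturase, read 10.31 (control), 10.51 (0.5 h), 10.65 (1 h) and 10.49 (3 h), and its 3 probe sets gave 0.34, 0.44 and 0.33 at 1 h and 0.20, 0.19 and 0.31 at 0.5 h.

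Dhcr7, the reductase of the last step to cholesterol, read 7.35, 7.53, 7.70 and 7.57 in the control and at 0.5, 1 and 3 h, and so rose 1.27-fold at 1 h and stood at 1.17-fold at 3 h. Msmo1, which removes methyl groups from the sterol, peaked at 1 h as well, with a ratio of 0.30 just under the rule, and was at 0.08 at 3 h. Tm7sf2, a sterol reductase, read 7.04 (control), 7.06 (0.5 h), 7.34 (1 h) and 7.41 (3 h), and passed the rule at 3 h alone with 1.29-fold. Its ratio at 1 h was 0.31, just short of the rule, and the step to 3 h was only 0.06, from 1 probe set. It was 1 of 4 sterol enzymes with the highest ratio at 3 h.

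The remaining enzymes after squalene were short of the rule at every time. Nsdhl, a sterol dehydrogenase, had ratios of 0.13, 0.23 and 0.24, and Lss, lanosterol synthase, 0.08, 0.17 and 0.19. Sqle, squalene epoxidase, which is a known control point of the pathway, had 0.03, 0.15 and 0.09. Ebp, a sterol isomerase, did not move beyond ±0.03, with log2 signals of 10.07, 10.05, 10.09 and 10.09.

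Counted by probe set, the sterol branch was again mostly above the control. Of the 34 sterol probe sets above the floor, 31 were above the control at each time, against 50.7%, 54.4% and 49.9% of all probe sets with 1 symbol. At 1 h, 14 of the 34 rose and 0 fell. Among all 20412 probe sets with 1 symbol, 6.18% rose and 1031 fell at 1 h, so the count of 0 is not a result about the branch. Of 9 sterol enzymes with several probe sets above the floor, 7 had all of them above the control at 1 h, the exceptions being Mvk and Fdft1. In the fatty acid branch this held for 4 of 8 such genes, namely Acaca, Scd1, Elovl6 and Fads1. Probe sets of one gene share the RNA sample, so they check the hybridisation and not the culture.

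**Figure D2:**
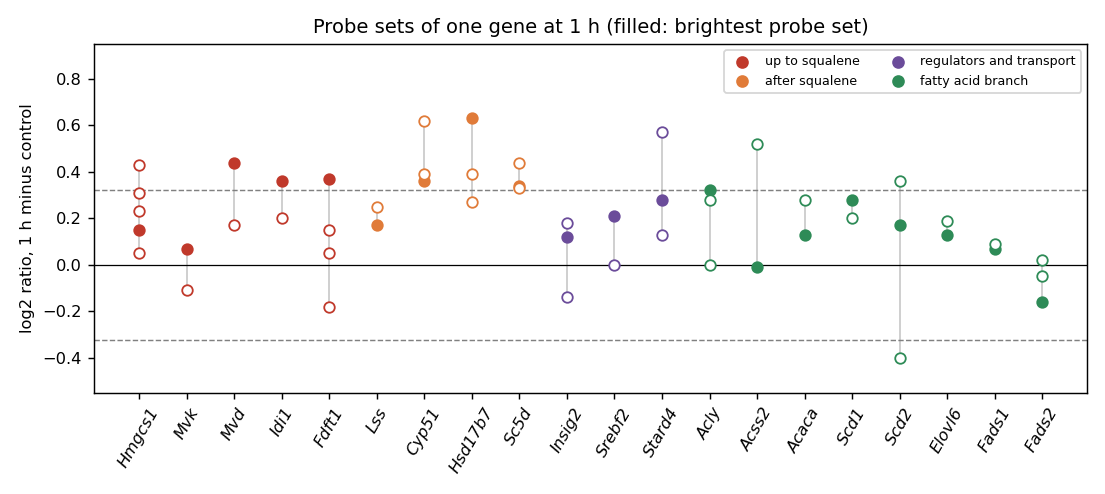
Log2 ratio at 1 h, LIPUS array minus control array, of every probe set above the floor for the genes that had several, coloured by group. Filled points are the brightest probe sets. All 3 points of Cyp51 and of Sc5d lie above the upper dashed line at 0.32, while those of Scd2 spread between −0.40 and 0.36.

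Of the regulators and carriers, Insig1 alone rose, at 1 h, by the brightest probe sets. Insig1, the sterol-sensitive brake on SREBP transport, read 9.43 (control), 9.66 (0.5 h), 9.79 (1 h) and 9.47 (3 h). It rose 1.28-fold at 1 h and was within 0.04 of the control at 3 h, so the array at 1 h was the highest and the array at 3 h was back near the control. Insig2, its relative in the same role, had ratios of 0.12, 0.12 and 0.19, and its 3 probe sets differed in sign at 1 h.

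Srebf2, the gene of the sterol-directed SREBP, had ratios of 0.03, 0.21 and 0.05, but the second probe set gave −0.11, 0.00 and −0.07. Srebf1, which encodes the lipogenic SREBP, had 0.07, 0.14 and 0.19. Scap stayed within 0.08 of the control on every array. Stard4, a carrier that moves sterol between membranes and is itself an SREBP target, read 8.83, 8.84, 9.11 and 8.98, a ratio of 0.28 at 1 h. Another probe set of Stard4 read 7.88, 8.21, 8.45 and 8.38 and would have passed the rule at all times, and the remaining one gave −0.09, 0.13 and 0.01. Of the 6 genes in all, 1 rose at 1 h and 0 at the other times, with medians of 0.05, 0.17 and 0.10. Over all genes 1.37%, 5.32% and 3.26% rose at 0.5, 1 and 3 h, so these counts are not a result about the group.

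The fatty acid branch had smaller ratios than the sterol branch at each time. Over its 9 genes the median log2 ratio was 0.00 (0.5 h), 0.13 (1 h) and 0.05 (3 h). Ratios above 0 were found in 5, 6 and 7 of them, against 52.7%, 54.7% and 52.2% of all genes. Acly rose at 1 h, and no other gene of the branch passed the rule at any time. Over all genes 1.37%, 5.32% and 3.26% rose at 0.5, 1 and 3 h, so these counts among 9 genes are not a result about the branch. The median of the sterol branch minus that of the fatty acid branch was 0.17, 0.17 and 0.16 at 0.5, 1 and 3 h, and between 0.08 and 0.20 over 7 alternatives that kept the control as the reference and moved at least 1 branch median. With the mean of the other 3 arrays as the reference it was 0.06, 0.09 and 0.02. No test of this difference was possible with 1 array per group, and genes of a branch are not replicates.

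**Figure D3:**
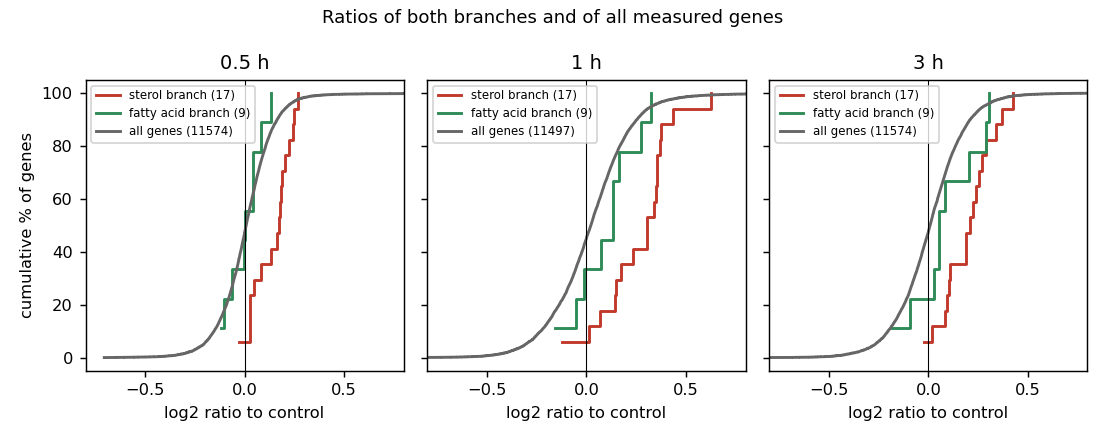
Cumulative share of genes by log2 ratio to the control at 0.5, 1 and 3 h for the 17 sterol genes, the 9 fatty acid genes and all measured genes. The sterol curve lies right of the curve of all genes in the 3 panels, and the fatty acid curve starts on it at 0.5 h.

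Within the fatty acid branch the values ran at 1 h between −0.16 for Fads2 and 0.32 for Acly. Acly, the citrate lyase that supplies acetyl-CoA to both branches, read 10.76 (control), 10.90 (0.5 h), 11.09 (1 h) and 11.07 (3 h). Its ratio of 0.32 at 1 h lay at the rule itself and was short of it after quantile normalization or cyclic loess. A second probe set gave 0.28 at 1 h, and the remaining one above the floor stayed between 8.89 and 8.91 on all 4 arrays.

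Scd1 and Scd2 are desaturases that make oleic and palmitoleic acid, and neither passed the rule. Scd1 read 10.27 (control), 10.35 (0.5 h), 10.55 (1 h) and 10.56 (3 h), and the second probe set also put 1 h and 3 h highest. Scd2 had ratios of 0.00, 0.17 and 0.20, but its probe sets disagreed at 1 h, one at 0.36 and another at −0.40, so no direction is given for it.

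Fasn, fatty acid synthase, had log2 signals of 10.52, 10.40, 10.46 and 10.42 in the control and at 0.5, 1 and 3 h, so the control was the highest array. Acaca, the carboxylase that makes malonyl-CoA, had ratios of 0.04, 0.13 and 0.05, and Elovl6, an elongase of long-chain fatty acids, 0.04, 0.13 and 0.08. Acss2, which makes acetyl-CoA from acetate, had −0.10, −0.01 and 0.05 by its brightest probe set and 0.09, 0.52 and 0.36 by a second one.

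Fads1 and Fads2 are the desaturases of polyunsaturated fatty acids. The brightest probe set of Fads1 stayed within 0.07 of the control, and its other one had ratios of −0.14, 0.09 and 0.26. Fads2 read 9.65, 9.59, 9.49 and 9.47 in the control and at 0.5, 1 and 3 h, a ratio of −0.19 at 3 h that did not pass the rule, and its 3 probe sets were all below the control at 3 h. Fads2 was thus the member with the lowest ratio at 1 h and at 3 h.

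Both branches had their highest median at 1 h. The highest ratio lay at 1 h in 11 of 17 sterol enzymes (2 at 0.5 h, 4 at 3 h) and in 5 of 9 fatty acid genes (1 at 0.5 h, 3 at 3 h). Among all genes, 37.6% had the highest ratio at 1 h. From 0.5 to 1 h, a step that does not use the control array, 15 of 17 sterol genes, 6 of 6 regulators and 8 of 9 fatty acid genes went up, against 53.2% of all genes, with medians of 0.12, 0.12 and 0.09. Between these arrays 3.31% of all genes rose by the rule and 2.09% fell, and Hsd17b7 was the member that rose. Of the related genes described further on, Fbxw7 (0.35) and Nceh1 (0.42) rose in this step, while Nfya, a subunit of NF-Y (−0.33), and Rabggta (−0.38) fell.

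From 1 to 3 h, 11 of 17 sterol genes, 4 of 6 regulators and 6 of 9 fatty acid genes went down, against 54.5% of all genes, with medians of −0.06, −0.14 and −0.03. No member passed the rule in this step, in which 1.74% of all genes rose and 2.36% fell. The largest decreases were those of Insig1, at −0.32 just short of the rule, and of Mvd and Msmo1, at −0.22 each. The step medians of the sterol branch minus those of the fatty acid branch were 0.03 and −0.03, while the difference of 0.17 against the control was already there at 0.5 h.

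**Figure D4:**
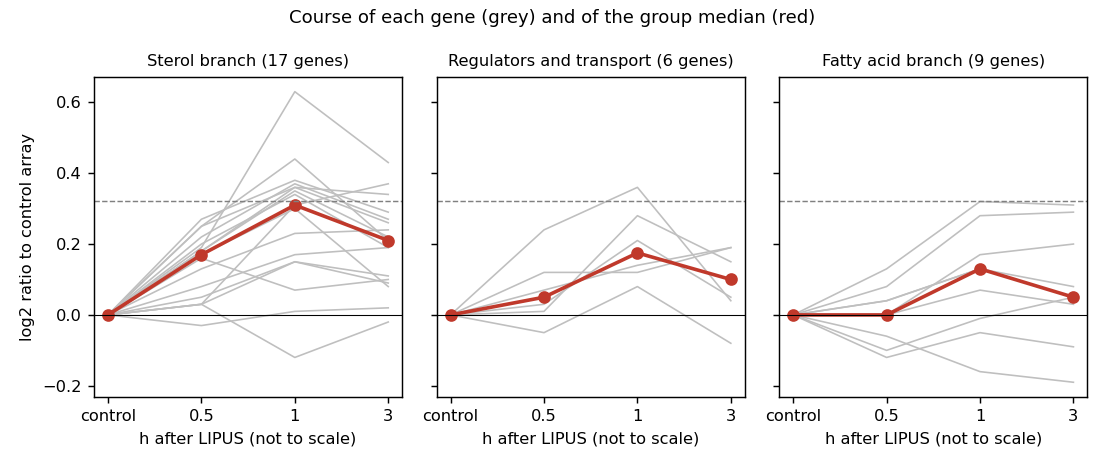
Log2 ratio to the control array in the control and at 0.5, 1 and 3 h after LIPUS for each gene (grey) and the group median (red), for the sterol branch, the regulators and the fatty acid branch. The red line peaks at 1 h in each panel, at 0.31, 0.17 and 0.13.

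Probe sets for poly-A control transcripts, which are added to the RNA from outside, had a median log2 ratio close to that of the sterol branch at 1 h (0.29) and above it at 3 h (0.39), with 24 of 24 probe sets above the control each time. At 0.5 h they stood at −0.05 with 7 of 24 above the control, while the sterol median was 0.17. The median over all genes moved by no more than 0.02 at any time, and the fatty acid median at 1 h was 0.13. Probe sets for 18S ribosomal RNA had medians of 0.96, 1.91 and 1.79. The part of these in the sterol and fatty acid values was not tested.

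Genes that act around the pathway were read against the same shares of all genes. These were 1.37%, 5.32% and 3.26% higher and 1.29%, 4.25% and 2.93% lower at 0.5, 1 and 3 h. Next to these shares, counts of 0 in lists this short are not a result about the lists. Of 13 measured genes that cut, degrade or assist SREBPs, 0 rose and 0 fell against the control at any time, with medians of 0.03, 0.02 and 0.00. Of 17 other lipid synthesis genes, which include elongases and enzymes of triglyceride and phospholipid assembly, 0 passed the rule either way, with medians of −0.03, 0.04 and 0.01. Of 10 genes of cholesterol trafficking and esterification, 0 passed it, with medians of 0.01, 0.03 and 0.00.

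The LXR and efflux list held 5 measured genes of 8, among them the receptor genes Rxra and Rxrb. The LXR genes themselves have no ratio here. Nr1h2 had no probe set with 1 symbol, and Nr1h3 lay under the floor on all arrays, as did Abcg1. Of the 5 measured genes, 1 rose at 1 h and 3 h and 0 fell, with medians of −0.02, −0.10 and −0.02. Over all genes, 5.32% and 3.26% rose and 4.25% and 2.93% fell at 1 h and 3 h. A count of 1 among 5 genes is not a result about the list. The gene that rose was Mylip, which encodes a ubiquitin ligase for lipoprotein receptors and read 8.90 (control), 9.01 (0.5 h), 9.24 (1 h) and 9.25 (3 h). Its 2 last arrays thus stood together above the control, and its ratio at 3 h was 0.35. The other 4 measured genes did not pass the rule at any time. Their ratios at 3 h were −0.02 (Abca1), −0.08 (Lpcat3), 0.01 (Rxra) and −0.19 (Rxrb).

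**Figure D5:**
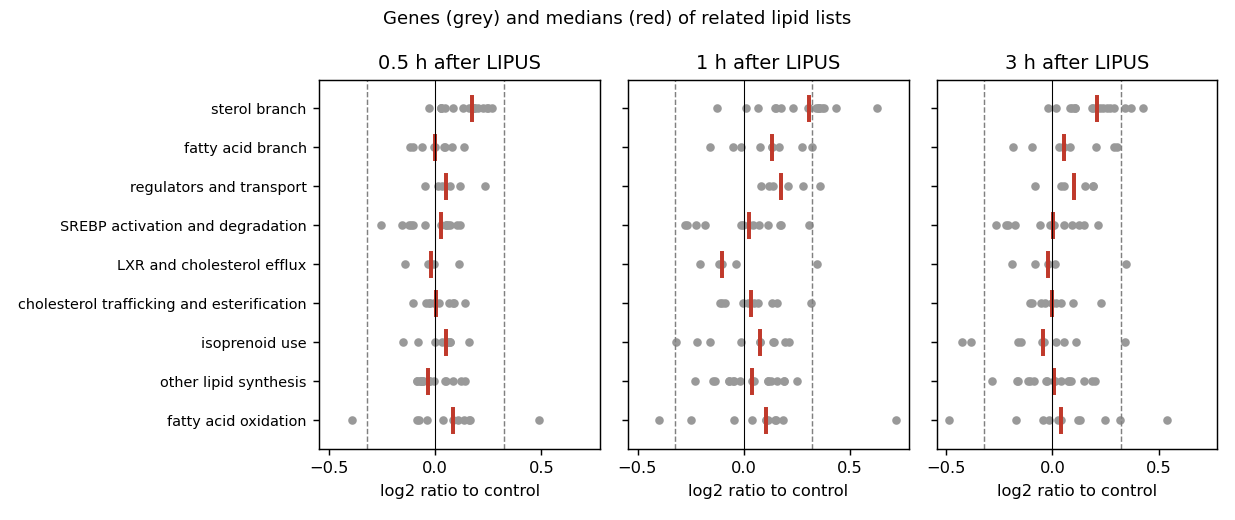
Log2 ratio to the control of each measured gene (grey) and the median (red) of 9 lists at 0.5, 1 and 3 h, with dashed lines at 0.32 either way. The sterol branch has the median farthest from 0 among these lists in each panel, at 0.17, 0.31 and 0.21.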

How the data were processed

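Labelled cRNA made from 500 ng of total RNA of ST2 cells was hybridised to 4 arrays, 1 per group, per the labels' protocols, and samples had an RNA integrity number above 9.5. The authors deposited log2 values, 1 per probe set and array, already on a common scale. The log base was taken from the range of 1.53 to 14.5, and the summary and scaling methods are not given in the sources used here. There are no counts or detection calls, and the precision is limited by how few arrays there are.

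Of 45101 probe sets, 34945 had 1 symbol in the platform annotation, updated through Entrez numbers for 34741. For each of 18193 genes the probe set brightest on average was used. Values under the median of all values were raised to it, and a gene entered a comparison when either array exceeded it. Ratios are differences of log2 values. Genes past a log2 ratio of 0.322 were counted, and no test, p-value or standard error was computed. The probe set error is the SD of the difference between the 2 brightest probe sets of a gene, divided by the square root of 2. The members, the lists and this rule were chosen with earlier results of these data known. All members are named, and of the related lists each gene past the rule against the control or in a step. All genes of the LXR and efflux list and the other subunits of protein prenyl transferases are named as well. Promoters were taken from 250 bases before to 50 after the start.

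Alternatives changed the floor, scaling, choice of probe set, filter, reference array, size rule (0.20 or 0.58 on the log2 scale) and grouping of regulators. Python 3.11.15, numpy 2.4.6, pandas 2.3.3, R 4.3.3 and limma 3.58.1 (quantile and loess scaling) were used.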

Additional observations from a re-analysis of the deposited data

Results flagged for a closer look

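Some probe sets outside the comparisons gave signals above the control array. Those for poly-A control transcripts had median log2 ratios of 0.29 at 1 h and 0.39 at 3 h, but −0.05 at 0.5 h. For 18S ribosomal RNA, 3 probe sets had medians of 0.96 at 0.5 h, 1.91 at 1 h and 1.79 at 3 h. The 9 hybridisation controls had medians of −0.14, 0.08 and 0.02, with 0, 5 and 5 of them above the control. Their part in the values of the sterol and fatty acid genes was not tested.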

How the results depend on the processing

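No paired analysis was possible because each group is 1 array. Over 7 alternatives that kept the control array as the reference and moved at least 1 branch median, the sterol median ran between 0.13 and 0.19 at 0.5 h, 0.25 and 0.33 at 1 h, and 0.15 and 0.22 at 3 h. The fatty acid median ran between −0.02 and 0.02, 0.08 and 0.16, and 0.04 and 0.14. With the mean of the other 3 arrays in place of the control, the sterol median turned to −0.01 at 0.5 h and was 0.04 at 3 h. The branch difference was then 0.06, 0.09 and 0.02 at the 3 times. With this reference, the number of sterol genes that rose was 1 at 1 h and 0 at 3 h (all genes 2.28% and 1.13%). That reference contains the other LIPUS arrays by construction. The number of sterol genes that rose at 1 h was 5 with quantile normalization, the mean over probe sets, or no _x_at and _s_at probe sets (all genes 4.03%, 4.23% and 5.31%). At 3 h it was 1 with the mean over probe sets (all genes 2.27%). With a size rule of log2 0.58 it was 1 at 1 h and 0 at 3 h (all genes 0.948% and 0.346%), and with 0.20 it was 4 at 0.5 h and 9 at 3 h (all genes 6.07% and 10.9%). The number of fatty acid genes that rose at 1 h was 0 with quantile normalization, cyclic loess, the mean over probe sets, the mean of the other 3 arrays or a rule of 0.58. Under these settings 4.03%, 4.4%, 4.23%, 2.28% and 0.948% of all genes rose. The number was 2 with a rule of 0.20 (all genes 15.4%), which gave 3 at 3 h (all genes 10.9%). The cause of these differences was not tested. Of 567 member ratios recomputed with the control as the reference, 552 moved by less than the probe set SD and 15 by more, and 0 members past the rule changed sign. Many of the 567 could not move by that much, so the count of 552 says little about stability. The floor at the 75th percentile left every member ratio it kept unchanged. Leaving out _x_at and _s_at probe sets could change only Mvd, Fdft1, Lss and Hsd17b7, and centring shifts all genes of an array alike. Floors at the 25th percentile or none are not among the 567, and they leave the brightest probe set of a member as it is. Depth cannot be stated for arrays, and every member lay above the floor.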

Other observations

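Of 10 measured genes of isoprenoid use, 0 passed the log2 rule of 0.322 at 0.5 h or 1 h, and at 3 h 1 rose and 2 fell, where 3.26% of all genes rose and 2.93% fell, with medians of 0.05, 0.08 and −0.04. The gene that rose was Ggps1, the synthase of the geranylgeranyl lipid anchor, which read 7.61 (control), 7.66 (0.5 h), 7.82 (1 h) and 7.95 (3 h). Those that fell encode subunits of protein prenyl transferases: Fntb had ratios of −0.15, −0.22 and −0.38, and Rabggta 0.06, −0.32 (short of the rule before rounding) and −0.42. The other subunits of these enzymes on the list did not fall, with ratios at 3 h of 0.11 (Fnta), 0.05 (Pggt1b) and 0.02 (Rabggtb). No direction is therefore given for these enzymes or for the list.

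Of 11 measured genes of fatty acid oxidation, 1 rose and 1 fell at each time. Over all genes, 1.37%, 5.32% and 3.26% rose and 1.29%, 4.25% and 2.93% fell at 0.5, 1 and 3 h, so 1 of 11 is not a result about the list. Pdk4, a kinase that restrains pyruvate oxidation, read 10.04 (control), 10.53 (0.5 h), 10.76 (1 h) and 10.58 (3 h), and its rise of 0.72 at 1 h was above that of every sterol enzyme. Ppard, a nuclear receptor for fatty acids, read 8.28, 7.89, 7.88 and 7.79 on the same arrays, below the control each time. The list medians were 0.09, 0.10 and 0.04.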
